A study of Homo sapiens with 18 samples.

Results

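The DNA replication genes are the members of the machinery that copies the genome in S phase. They were taken as 49 named symbols of the 26475 in the deposited RNA-seq table, from the origin recognition complex through the MCM helicase, the polymerases, the sliding clamp and its loader to nucleotide supply, copying of DNA methylation and fork protection. The symbols were named by function, with earlier results of these data known. RNA was sequenced from Mel92.1 and MP41, both lines from uveal melanoma, a cancer of the pigment cells of the eye. Each line was treated for 48 h with 1 µM UNC0642 or 1 µM A366, which both inhibit EHMT2 (G9a) and the related EHMT1, or with the solvent DMSO. EHMT1 and EHMT2 are methyltransferases that place repressive methyl marks on lysine 9 of histone H3. The 6 groups held 3 replicates each, described as biological by the submitters, which gave 18 libraries. No genotype was changed in either line, and nothing in the sources states that the 3 replicates of a group came from separate passages, so p-values measure the spread between these libraries.

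Replication starts at origins that the origin recognition complex marks and where CDC6 and CDT1 load the MCM2 to MCM7 ring as an inactive helicase. CDC45 and the GINS complex convert that ring into the active helicase, primase and DNA polymerase alpha lay down primers, and DNA polymerases epsilon and delta extend them with the help of the PCNA clamp. Most of these genes are transcribed in late G1 and S phase under E2F factors, so their mRNA is low in resting cells and high in dividing ones.

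The labels of 4 libraries did not match their content. The 2 libraries labelled A366 replicates 2 and 3 of MP41 held 96.5% and 109% of the Mel92.1 level of 27 genes found only in Mel92.1 with DMSO, and at most 0.0677% of the MP41 level of 33 genes found only in MP41. The 2 labelled A366 replicates 2 and 3 of Mel92.1 held 110% and 112% of the MP41 genes and at most 0.0384% of the Mel92.1 genes. The study's own results table lists these 4 libraries under the other line too. Results are therefore given with the 4 exchanged between the lines. The counts of members called with A366 against DMSO are also given with the libraries as labelled and without these 4. In the last case A366 has 1 library per line, which is assumed to vary as the other groups do. The coefficient of biological variation over all genes was 0.109 in MP41 and 0.175 in Mel92.1 after the exchange, against 0.365 and 0.401 as labelled.

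In GENCODE release 29 (GRCh38), MCM2, MCM7, GINS2, PRIM1, RFC4, RFC5, RPA1, RPA3, FEN1 and TYMS overlap a gene on the opposite strand, and POLA2, PRIM1, POLD1, FEN1, RRM2 and DNMT1 one on the same strand. The libraries mark the strand, but the strand setting of the counting is not given in the sources used here, so the counts of these members are less certain. Library totals ran from 23601156 to 62941462 counts with a median of 41955693, and the lowest count of any member in any library was 95, of POLE2 in Mel92.1 UNC0642 replicate 1. That library also had the lowest total, and 32.8% of its counts fell on ribosomal RNA genes. This share was 3.31% to 5.10% in the MP41 DMSO libraries, 3.55% to 5.14% with UNC0642 and 5.93% to 11% with A366, so it moved with A366 in MP41, and its part in the results below was not tested. Of 8 melanocyte markers, PMEL, TYRP1, MITF, SOX10, MLANA, TYR and GPR143 stood at 131 CPM or more in every library of both lines, while DCT was low in Mel92.1, at 1.16 to 10.6 CPM. Of 8 markers of other cell types, 7 stayed at or below 1.06 CPM in every library, and COL1A1 was at 7.25 to 22.2 CPM.

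The sequence around the start sites carries the E2F letters that many of these genes are known for, in CDC6, MCM2 and GINS1 only after the start. In the RefSeq promoter windows (GRCh38.p14, 250 bases before to 50 after each start), 42 members had a window and 22 of these, 52.4%, held TTTCCCGC, TTTCGCGC, TTTGCCGC or TTTGGCGC on either strand, against 3.99% of 27305 genes. MCM4, MCM5, GINS4, POLD3, RPA2, RPA3 and DNA2 had no window. The CCAAT box bound by NF-Y stood in 64.3% of the members and 39.7% of all genes, and the GC box GGGCGG in 73.8% and 48.3%. The CHR letters TTTGAA and TTCGAA, known from mitotic promoters, stood in 4.76% of the members and 19.5% of all genes. All were searched on both strands, and a match is a description of these windows only. A stretch of 100 bases ending upstream of or at the start is shown for 7 members from the successive steps, with E2F letters in capitals. They were taken from members that had the letters in this stretch and fell with A366 in MP41, as described below. CDT1, MCM7, GINS2, POLA2 and TYMS had the letters there too but were not called, and are not shown. In MCM6 and TIPIN the capitals cover matches that overlap on the opposite strands.
ORC3 (chr6:87590035-87590134, plus strand): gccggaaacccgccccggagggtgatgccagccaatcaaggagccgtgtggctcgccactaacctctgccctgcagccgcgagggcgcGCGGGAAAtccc
MCM6 (chr2:135876444-135876543, minus strand): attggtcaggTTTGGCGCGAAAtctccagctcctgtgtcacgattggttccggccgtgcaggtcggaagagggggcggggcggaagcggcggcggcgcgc
POLE (chr12:132687343-132687442, minus strand): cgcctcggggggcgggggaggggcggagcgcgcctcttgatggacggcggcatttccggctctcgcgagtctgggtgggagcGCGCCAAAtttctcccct
PCNA (chr20:5126623-5126722, minus strand): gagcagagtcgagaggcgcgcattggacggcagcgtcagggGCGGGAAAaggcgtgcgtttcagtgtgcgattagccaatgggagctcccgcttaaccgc
RFC3 (chr13:33818049-33818148, plus strand): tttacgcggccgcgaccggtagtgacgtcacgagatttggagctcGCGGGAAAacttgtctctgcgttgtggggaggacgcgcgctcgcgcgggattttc
UHRF1 (chr19:4909401-4909500, plus strand): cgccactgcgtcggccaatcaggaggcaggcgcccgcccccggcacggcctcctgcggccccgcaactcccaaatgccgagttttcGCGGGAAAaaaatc
TIPIN (chr15:66356686-66356785, minus strand): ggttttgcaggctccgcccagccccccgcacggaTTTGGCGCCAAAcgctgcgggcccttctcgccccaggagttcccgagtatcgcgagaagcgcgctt

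With DMSO, PCNA was the most abundant member in both lines when levels were compared per kilobase of the longest transcript, at 230 ± 15.2 CPM per kb in Mel92.1 and 235 ± 6.52 in MP41 (SD, n = 3). DNA2, a nuclease and helicase that trims long flaps, was lowest, at 5.12 ± 0.762 and 5.96 ± 0.284 CPM per kb. In the order of levels, 40 of the 48 pairs of neighbours in Mel92.1 and 29 of 48 in MP41 lay within the spread of their replicates. The 6 subunits of the MCM ring, which enter the helicase in equal numbers, differed widely in mRNA per kb. In Mel92.1 they ran MCM3 114, MCM7 108, MCM4 104, MCM2 58.6, MCM6 41.3 and MCM5 38.0 CPM per kb. In MP41 the order was MCM7 112, MCM6 60.5, MCM3 49.2, MCM4 37.0, MCM5 32.4 and MCM2 18.5 CPM per kb.

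**Figure D1:**
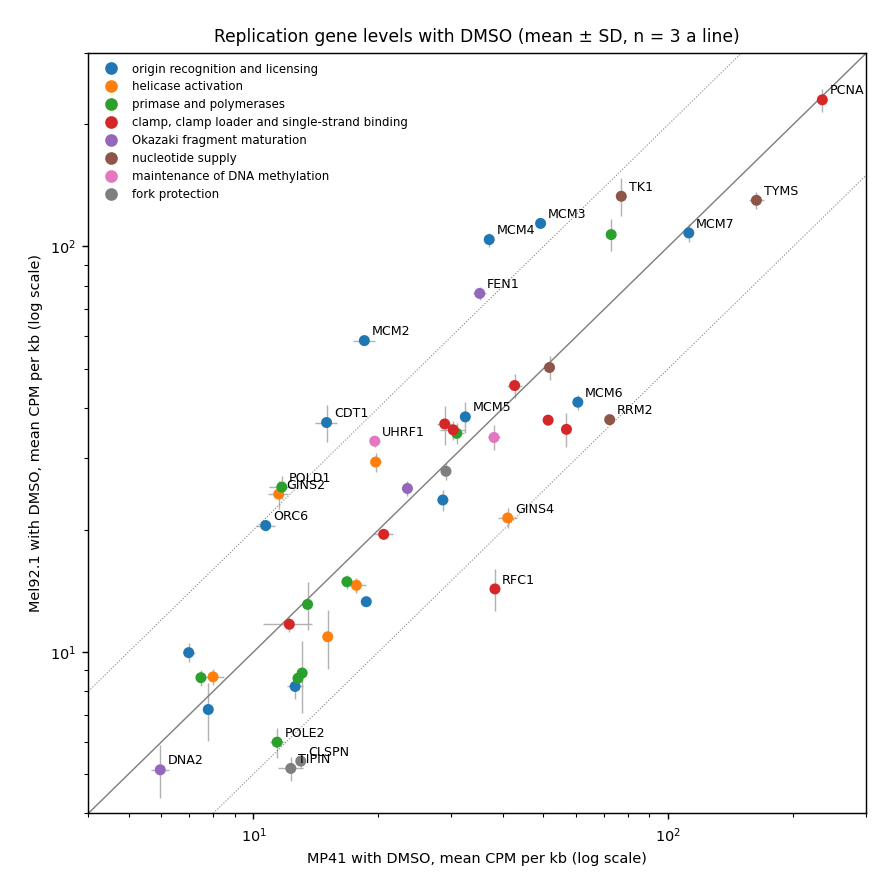
Mean level of each of the 49 replication genes with DMSO in MP41 (x axis) and in Mel92.1 (y axis), in CPM per kb of the longest transcript on log scales. Bars are the SD of 3 replicates, colours mark the role, the solid line marks equal levels and the dotted lines a 2-fold difference. MCM2, MCM3, MCM4, CDT1, FEN1, POLD1 and GINS2 lie above the upper dotted line, and RFC1, CLSPN and TIPIN below the lower one, while PCNA lies near equality.

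Replication genes differed between the lines in both directions, at shares near those of all genes. Between the DMSO libraries, 36 of 49 members passed the test (edgeR quasi-likelihood, adjusted p under 0.05 over 14829 genes), 17 higher and 19 lower in Mel92.1, beside 76.4% of all genes, of which 38.1% were higher and 38.4% lower. The median difference of the members was -0.055 on the log2 scale, against -0.012 for all genes. When only library size was used for scaling, which brings the median of all genes to about -0.20, the split became 13 higher and 27 lower. None of the 4 libraries in doubt enters this comparison.

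The largest excess in Mel92.1 lay in licensing. MCM2 (chr3:127598223-127622436) stood at 211, 212 and 214 CPM in the Mel92.1 DMSO libraries and at 71.4, 63 and 67.1 in those of MP41, a log2 difference of 1.65 (SE 0.067, edgeR adjusted p = 4.86e-08). MCM4 stood at 454, 434 and 420 CPM against 152, 156 and 157, and differed by 1.49 (SE 0.059). The lowest Mel92.1 library was well above the highest MP41 library for both subunits. MCM3 (1.2), CDT1, which loads the ring (1.29), and ORC6, the smallest subunit of the origin recognition complex (0.94), were also higher in Mel92.1. MCM6 went the other way, at 161, 154 and 148 CPM in Mel92.1 and 225, 227 and 226 in MP41 (-0.56, SE 0.059). ORC1 (-0.62), ORC5 (-0.50) and CDC6 (-0.28) were lower in Mel92.1 too, ORC3 (0.51) and MCM5 (0.22) were higher, and ORC2 (-0.12) and MCM7 (-0.055) did not pass the test. Thus 7 of 13 licensing genes were higher in Mel92.1 and 4 lower, beside 38.1% and 38.4% of all genes.

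Subunits of one complex moved apart in the later steps as well. Of the GINS complex, GINS2 was higher in Mel92.1 by 1.09 (SE 0.083), while GINS4 was lower at -0.95 (SE 0.072) and GINS1 at -0.29. CDC45, their partner in the active helicase, was higher by 0.57, and MCM10, which helps to activate it, lower at -0.47. POLD1, the catalytic subunit of polymerase delta, was at 84.9, 88.3 and 96.0 CPM in Mel92.1 and 38.4, 43.8 and 41.8 in MP41 (1.11, SE 0.079, edgeR adjusted p = 1.46e-06). Its accessory subunit POLD2 was higher in Mel92.1 by 0.55, whereas POLD3 was lower at -0.58. POLE2, an accessory subunit of polymerase epsilon, was lower at -0.93 (SE 0.10), and its catalytic partner POLE did not pass the test at -0.042 (SE 0.094). POLA1, the catalytic subunit of polymerase alpha, was lower at -0.57 and POLA2, its regulatory subunit, at -0.18, while PRIM2, the large subunit of primase, was higher by 0.20.

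RFC1 (chr4:39287456-39366375 in GRCh38), the large subunit of the clamp loader, had the lowest log2 difference of Mel92.1 against MP41. It stood at 79.5, 66.1 and 64.6 CPM in Mel92.1 and at 190, 182 and 187 in MP41, a log2 difference of -1.42 (SE 0.087, edgeR adjusted p = 5.94e-07). RFC2 was lower at -0.69, RFC4 higher by 0.21, and RFC3 (0.082) and RFC5 (-0.084), subunits of the same loader, did not pass the test. PCNA itself differed by -0.038 (SE 0.066). The single-strand binding subunits RPA1 (-0.47) and RPA2 (0.33) passed in opposite directions.

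The fork protection genes CLSPN and TIPIN were both low in Mel92.1. CLSPN (chr1:35720218-35769967) encodes claspin, an adaptor between the fork and the checkpoint, and stood at 26.6, 24.9 and 25.5 CPM in Mel92.1 against 63, 60.1 and 62.8 in MP41 (-1.28, SE 0.067, edgeR adjusted p = 2.15e-07). TIPIN was at 9.52, 8.33 and 9.17 CPM against 22.0, 22.5 and 19.8 (-1.26, SE 0.10). TIMELESS, the partner of TIPIN, was nearly level at 151, 138 and 141 CPM against 147, 148 and 152 (-0.067, SE 0.061). FEN1, the flap nuclease of Okazaki fragments, was higher in Mel92.1, at 172, 173 and 183 CPM against 81.0, 83.3 and 77.7 (1.12, SE 0.063). LIG1 and DNA2, of the same step, did not pass the test between the lines, and neither did GINS3, PRIM1 and RPA3.

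Among the genes of nucleotide supply, RRM2, the small subunit of ribonucleotide reductase, was lower in Mel92.1 by -0.96 (SE 0.056) and the large subunit RRM1 did not pass at -0.047 (SE 0.066). TYMS, which makes thymidylate, was lower at -0.33, and TK1, which salvages thymidine, higher by 0.78. UHRF1, which recognises newly copied DNA that is methylated on 1 strand, was higher by 0.75 (SE 0.061), and DNMT1, the methyltransferase it recruits, was lower at -0.17. Each of these families thus held members on both sides of equality.

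UNC0642 left the replication genes of MP41 near their DMSO level. None of the 49 members passed the test in edgeR, beside 0.241% of all 14956 genes, and 0 had an unadjusted p under 0.05. In DESeq2 0 passed (1 unadjusted), and in limma voom 0 passed (6 unadjusted). The differences ran from -0.14 to 0.16 on the log2 scale with a median of 0.041, and 39 of 49 lay above 0. All 49 intervals (95%) lay within a 1.5-fold change in either direction, the outermost bounds being -0.34 for PRIM2 and 0.40 for RPA3. The replicates of the groups did not overlap for 7 members, beside 18.8% of all genes. For example, MCM6 stood at 225, 240 and 230 CPM with UNC0642 and at 225, 227 and 226 with DMSO, PCNA at 302, 332 and 310 against 312, 329 and 318, and RRM2 at 245, 254 and 244 against 263, 272 and 262. The DMSO and UNC0642 libraries overlapped or lay close together for MCM6 and PCNA, and RRM2 was slightly lower in each UNC0642 library without passing the test (-0.10, SE 0.053).

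In Mel92.1, CLSPN was the only member called with UNC0642. CLSPN stood at 41.2, 40.3 and 39.0 CPM with UNC0642, above the 26.6, 24.9 and 25.5 with DMSO, a log2 change of 0.64 (SE 0.094, edgeR adjusted p = 0.0133), beside 0.688% of all 14528 genes called. The groups did not overlap. Its call was lost with the replicate number as a block (adjusted p = 0.071), without the 4 libraries in doubt (0.0508), with the libraries as labelled (1.0), with scaling by library size alone (0.369, at a log2 change of 0.43), and without DMSO replicate 2 (0.103), DMSO replicate 3 (0.0858) or UNC0642 replicate 2 (0.0612). TIPIN was at 16.1, 11.2 and 10.7 CPM against 9.52, 8.33 and 9.17 with DMSO, and did not pass (0.48, SE 0.17, edgeR adjusted p = 0.385). The lowest change was that of POLE2 at -0.40 (SE 0.19). POLE2 was at 5.77 CPM in UNC0642 replicate 1, the library with the high ribosomal share, at 10.1 and 8.32 in the others and at 9.78, 10.8 and 11.6 with DMSO, and the groups overlapped. The median of the members was -0.045, against -0.022 for all genes, 8 members had groups that did not overlap, beside 15.4% of all genes, and 44 of the 49 intervals lay within a 1.5-fold change.

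With A366 no member was called in Mel92.1 in edgeR, where 2 had an unadjusted p under 0.05, beside 0.213% of all genes called. DESeq2 called CLSPN, beside 171 of all 14528 genes. By limma voom with sample weights 11 members, 22.4%, were called, 6 higher and 5 lower, beside 3087 of the 14528 genes. CLSPN stood at 33.4, 32.3 and 39.0 CPM with A366 (0.45, SE 0.094, edgeR adjusted p = 0.151), each library above the 3 with DMSO. The median of the members was -0.0068, their values ran from -0.16 for CDT1 to 0.45 for CLSPN, and 45 of 49 intervals lay within a 1.5-fold change. The groups did not overlap for 7 members, beside 15.8% of all genes. As labelled and without the 4 libraries the count in edgeR was 0 as well, with 11 and 1 members at an unadjusted p under 0.05. The 2 inhibitors at the same dose did not differ for any member in Mel92.1 (0 in edgeR with 2 unadjusted, 0 in DESeq2 with 4, 0 in limma voom with 8). Of all 14528 genes, 24 (0.165%) differed in edgeR, 213 in DESeq2 and 214 in limma voom. For the members, 47 of the 49 intervals of that difference lay within a 1.5-fold change.

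In MP41, 26 replication genes fell with A366 and 2 rose. These 28 of 49, 57.1%, stand beside 46.0% of all 14956 genes that passed the same test (edgeR). For falls alone the members' share was 53.1% against 23.5% of all genes, and for rises 4.08% against 22.5%. The median of the members was -0.20 on the log2 scale, against 0.02 for all genes. The summed level of the 49 members was 5024 to 5060 CPM with DMSO, 5109 to 5192 with UNC0642 and 4441 to 4605 with A366, so each A366 library lay below the other 6. In bulk RNA, a smaller share of cells in S phase and less mRNA per S-phase cell cannot be told apart.

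Without the 4 libraries in doubt, 21 members fell and 2 rose, beside 19.8% and 16.0% of all genes, and CLSPN, GINS1, ORC3, PCNA and PRIM2 no longer passed. With the libraries as labelled, 13 fell and 8 rose, beside 13.4% and 19.4%, and 15 of the 28 were called in the same direction. The calls of DNA2 (-0.37), DNMT1, MCM3, MCM4, ORC2, ORC3, PCNA, POLE, PRIM2, RFC3, RFC5, RRM1 and UHRF1 were lost. The A366 group of MP41 then holds 2 libraries with the expression of Mel92.1, and the added rises were CDT1, FEN1, GINS2, MCM2, ORC6 and POLD1, which were all higher in Mel92.1 with DMSO. With an offset for the GC content and length of transcripts, 31 fell and 0 rose, beside 16.2% and 18.1%, and 21 of the 28 were called in the same direction. Leaving out 1 library at a time gave 23 to 33 calls, and CLSPN, GINS1, ORC3, PCNA, POLD2, PRIM2 and RPA1 each lost their call in one or more of these fits.

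**Figure D2:**
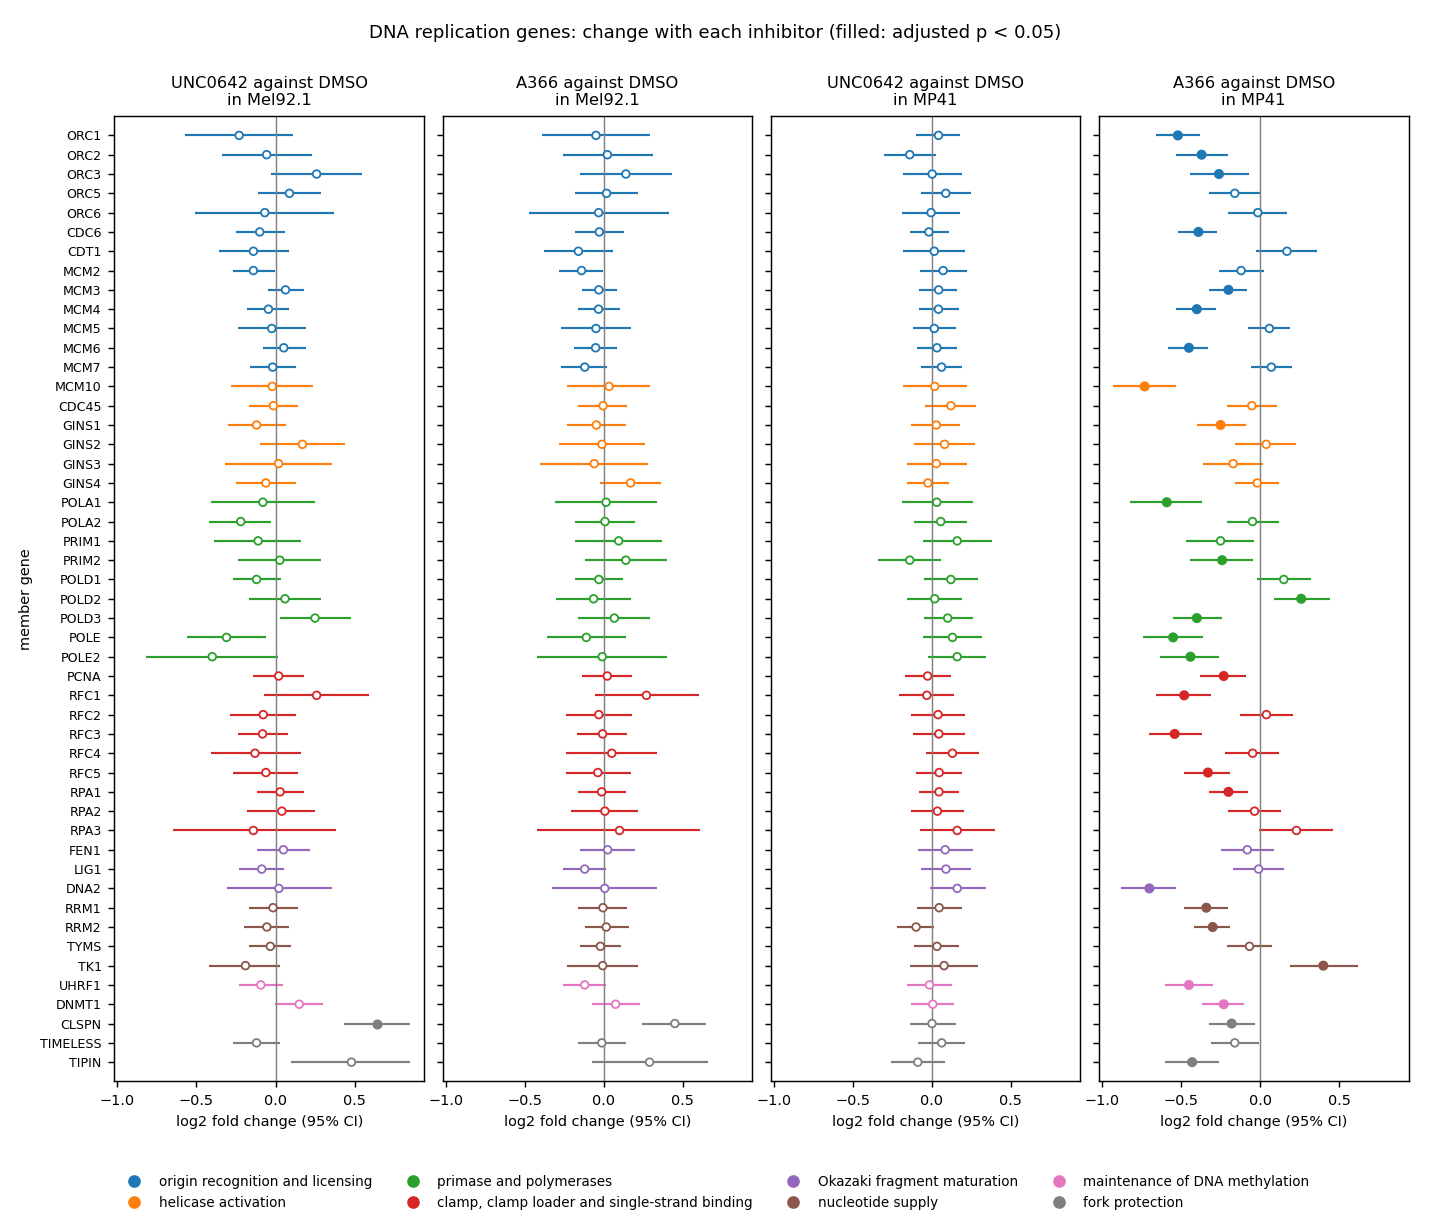
Log2 fold change of each of the 49 replication genes against DMSO, with its 95% confidence interval, for each inhibitor in each line. Filled points passed an adjusted p of 0.05 in edgeR and colours mark the role. Points lie near 0 in the first 3 panels, where CLSPN with UNC0642 in Mel92.1 is the only filled one, and 26 filled points lie below 0 and 2 above it in the panel of A366 in MP41.

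Of the 13 licensing genes, 7 fell with A366 in MP41 and none rose. ORC1, a subunit of the origin recognition complex, stood at 28.5, 28.7 and 27.3 CPM with A366 and at 37.8, 40.4 and 41.2 with DMSO (-0.52, SE 0.065, edgeR adjusted p = 0.000295). MCM6 stood at 170, 174 and 160 CPM against 225, 227 and 226 (-0.45, SE 0.058, edgeR adjusted p = 0.000329), and MCM4 at 121, 122 and 114 against 152, 156 and 157 (-0.40, SE 0.058). The groups did not overlap for any of these 3 genes. CDC6 fell too, from 142, 136 and 134 CPM to 108, 107 and 105 (-0.39, SE 0.058), as did ORC2 (-0.37), ORC3 (-0.26) and MCM3 (-0.20). As labelled, the signs of MCM4 (1.08), MCM3 (0.89) and ORC3 (0.47) turned, and none of these 3 was called.

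The other MCM subunits did not pass. MCM2 was at 61.3, 63.4 and 64.2 CPM with A366 against 71.4, 63 and 67.1 with DMSO (-0.12, SE 0.067), MCM5 differed by 0.059 and MCM7 by 0.071, so 3 of the 6 subunits of the ring were called. ORC5 (-0.16), ORC6 (-0.014) and CDT1 (0.17) did not pass either. With the GC and length offset MCM2 (-0.27) and MCM7 (-0.13) passed as lower.

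In helicase activation, MCM10 (chr10:13161554-13211104 in GRCh38) showed the lowest log2 change of all members. It stood at 40.5, 48.9 and 37.2 CPM with A366 against 68.5, 69.9 and 68.8 with DMSO (-0.73, SE 0.092, edgeR adjusted p = 0.000293), and remained called at -0.81 without the 4 libraries, -0.53 as labelled and -0.53 with the offset. GINS1 fell to 49.7, 49 and 49.2 CPM from 54.9, 61.1 and 56.7 (-0.25, SE 0.071). CDC45, at 40.3, 37.4 and 43.3 CPM against 40.6, 40.2 and 42.6, was within the spread (-0.052, SE 0.073). GINS2 (0.039), GINS3 (-0.17) and GINS4 (-0.018) did not pass.

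The catalytic subunits of polymerases alpha and epsilon fell, and that of delta did not. POLA1 stood at 47.9, 56.9 and 40.2 CPM with A366 against 69.8, 72.2 and 73.1 with DMSO (-0.59, SE 0.10, edgeR adjusted p = 0.0011). POLE stood at 70.4, 85.2 and 69.4 CPM against 108, 106 and 110 (-0.55, SE 0.087, edgeR adjusted p = 0.000752), and its subunit POLE2 at 16.2, 14.7 and 14.7 against 20.2, 21.2 and 19.6 (-0.44, SE 0.086). Every A366 library was below every DMSO library for these 3 genes. POLD1 was at 47.1, 42.6 and 50.1 CPM against 38.4, 43.8 and 41.8, and did not pass (0.15, SE 0.078).

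Within polymerase delta the accessory subunits went apart. POLD3 fell to 38.0, 38.8 and 36.3 CPM from 48.5, 47.8 and 50.2 (-0.40, SE 0.071). POLD2 rose to 194, 167 and 215 CPM from 159, 155 and 157 (0.26, SE 0.080, edgeR adjusted p = 0.0187). The rise of POLD2 lost its call without DMSO replicate 2 or 3 or A366 replicate 1 or 3, and with the GC and length offset its value was -0.069. Of the primase, PRIM2 fell (-0.24, edgeR adjusted p = 0.0457), while PRIM1 (-0.25, SE 0.10), the catalytic subunit, and POLA2 (-0.048) did not pass. The call of PRIM2 was lost with the replicate block, without a filter on low counts, with the offset, without the 4 libraries, as labelled, and without DMSO replicate 1, 2 or 3, UNC0642 replicate 3 or A366 replicate 1 or 3.

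The clamp loader fell in 3 of its 5 subunits. RFC3 stood at 71.6, 77.1 and 66.8 CPM with A366 against 98.0, 104 and 106 with DMSO (-0.54, SE 0.077, edgeR adjusted p = 0.000523), RFC1 at 137, 149 and 121 against 190, 182 and 187 (-0.48, SE 0.081), and RFC5 at 40.2, 42.1 and 39.7 against 47.4, 51.2 and 52.4 (-0.33, SE 0.067). RFC2, at 103, 89.8 and 109 CPM against 98.6, 94.9 and 95.5, and RFC4, at 44.1, 40.5 and 44.7 against 44.2, 46.6 and 40.7, overlapped with DMSO. PCNA, the clamp itself, fell to 294, 251 and 286 CPM from 312, 329 and 318 (-0.23, SE 0.067, edgeR adjusted p = 0.0143). RPA1, the large subunit of the single-strand binding protein, fell to 198, 202 and 191 CPM from 217, 222 and 230 (-0.20, SE 0.057), and RPA2 (-0.035) and RPA3 (0.23) did not pass.

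Of the 3 genes of Okazaki fragment maturation, DNA2 (chr10:68414064-68472121) fell. It stood at 15.3, 17.0 and 14.8 CPM with A366 against 26.5, 24.2 and 24.6 with DMSO (-0.70, SE 0.081, edgeR adjusted p = 0.000213), with no overlap. FEN1 was at 80.6, 68.9 and 83.3 CPM against 81.0, 83.3 and 77.7 (-0.081, SE 0.079), and LIG1, the ligase that seals the fragments, differed by -0.0095 (SE 0.074). With the GC and length offset FEN1 passed as lower, at -0.32, and DNA2 remained lower at -0.42.

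**Figure D3:**
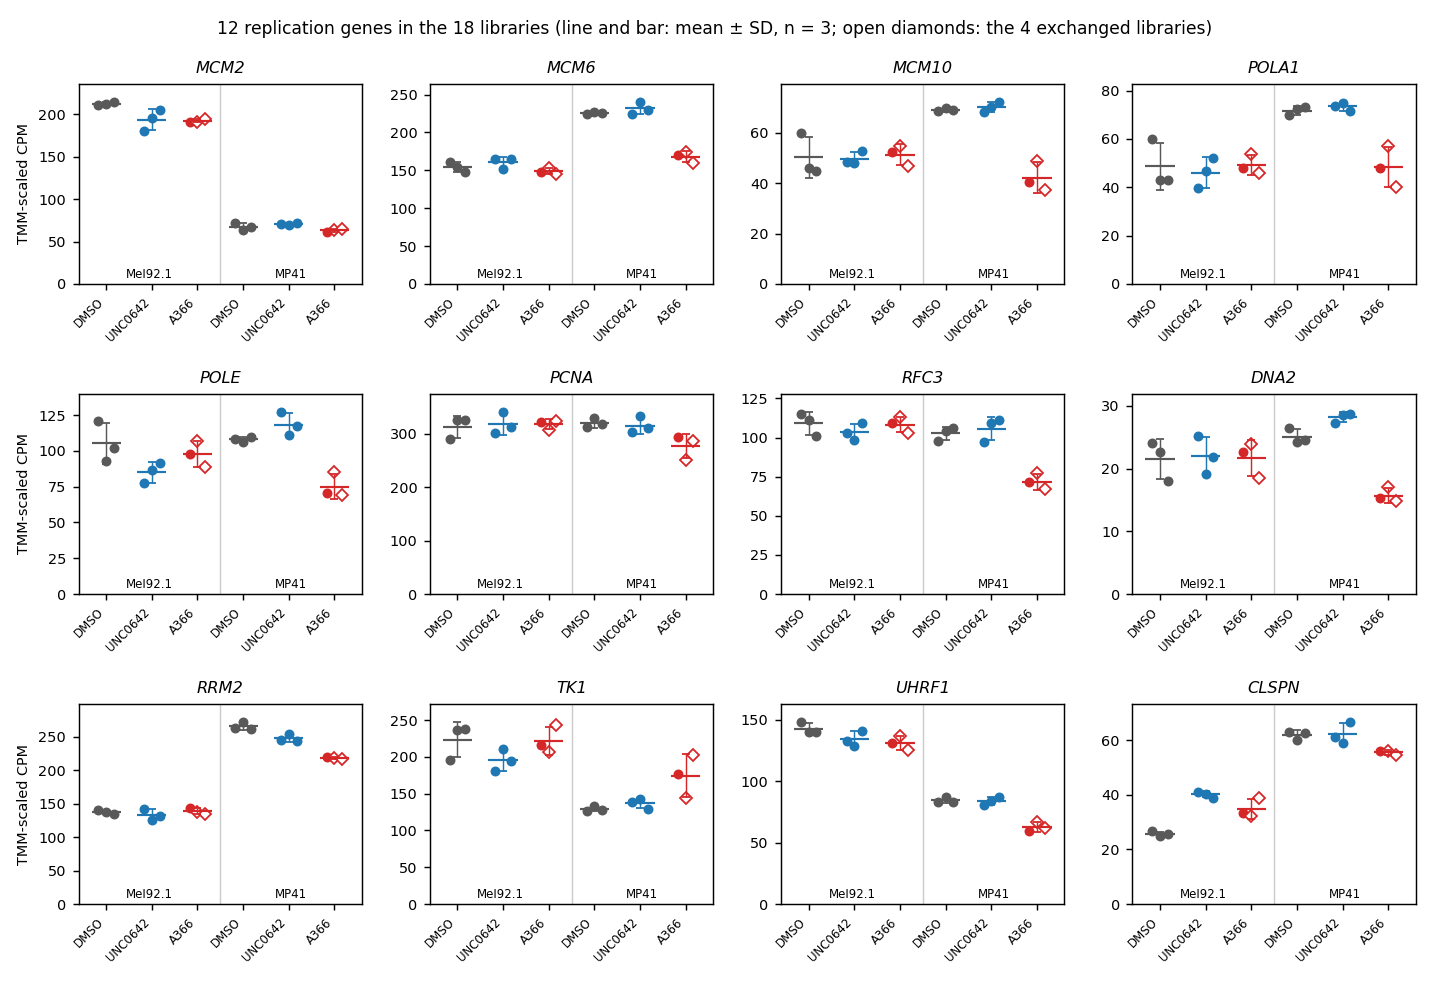
Level of 12 replication genes in each of the 18 libraries, in TMM-scaled CPM (y axis, from 0), by line and treatment (x axis). Each point is 1 library, open diamonds are the 4 libraries exchanged between the lines, and lines and bars are the mean ± SD of 3 replicates. MCM6, MCM10, POLA1, POLE, RFC3, DNA2 and UHRF1 are lower with A366 in MP41, TK1 is higher there, and MCM2 and CLSPN differ between the lines.

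Both subunits of ribonucleotide reductase, which supplies deoxynucleotides, fell with A366 in MP41. RRM1 stood at 133, 139 and 121 CPM against 165, 163 and 163 with DMSO (-0.34, SE 0.065, edgeR adjusted p = 0.00156), and RRM2 at 220, 219 and 217 against 263, 272 and 262 (-0.30, SE 0.053). TYMS was at 271, 246 and 271 CPM against 266, 283 and 262, within the spread (-0.067, SE 0.065). TK1 rose to 176, 144 and 203 CPM from 127, 133 and 128 (0.40, SE 0.10, edgeR adjusted p = 0.00619), and its value with the GC and length offset was -0.046. The 2 rises, of TK1 and POLD2, thus did not stand with that offset, and neither was above 0 there.

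UHRF1 and DNMT1, which copy DNA methylation to the new strand, both fell. UHRF1 stood at 59.7, 67.1 and 61.6 CPM with A366 against 83.0, 87.2 and 83.2 with DMSO (-0.45, SE 0.069, edgeR adjusted p = 0.000638), and DNMT1 at 177, 189 and 167 against 209, 198 and 209 (-0.23, SE 0.063). Both remained lower without the 4 libraries (-0.54 and -0.26) and with the offset (-0.49 and -0.21). As labelled, UHRF1 was at 0.36 and DNMT1 at -0.10, and neither passed.

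In fork protection, TIPIN fell to 16.0, 16.0 and 16.5 CPM from 22.0, 22.5 and 19.8 (-0.43, SE 0.079, edgeR adjusted p = 0.00141). CLSPN stood at 56.1, 56.1 and 54.6 CPM against 63, 60.1 and 62.8 (-0.18, SE 0.066, edgeR adjusted p = 0.0426), and its value was 0.0098 with the offset. Its call was lost with the offset, the replicate block, no filter on low counts, without the 4 libraries, and without DMSO replicate 1, 2 or 3, UNC0642 replicate 1 or A366 replicate 1 or 3. TIMELESS was at 136, 146 and 125 CPM against 147, 148 and 152 and did not pass (-0.16, SE 0.069). Counting all members, the A366 and DMSO groups of MP41 did not overlap for 32 of 49, 30 of them below, beside 58.1% of all genes. As labelled this count was 23, beside 43.9% of all genes, and with the 1 A366 library outside doubt it was 41, beside 77.5%. In Mel92.1 the same counts were 13, beside 21.8%, and 20, beside 40.8%.

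A366 and UNC0642 were given at the same dose and for the same time, and in MP41 31 members differed between them, 29 lower and 2 higher with A366, beside 22.0% and 21.1% of all genes and 43.1% in either direction. This comparison uses the same A366 libraries as the one against DMSO. DNA2 differed most, at 15.3, 17.0 and 14.8 CPM with A366 against 27.3, 28.6 and 28.7 with UNC0642 (-0.87, SE 0.081, edgeR adjusted p = 4.22e-05), and TK1 was highest (0.33, SE 0.10). POLE differed by -0.68, MCM10 by -0.75, POLA1 by -0.62 and POLE2 by -0.60. For CDC45 (-0.17), FEN1 (-0.17), LIG1 (-0.10), TYMS (-0.10) and MCM7 (0.0097) the compounds did not differ by the test. Of 27 further replication genes, described below, 18 were lower and 2 higher with A366. Of 20 G1/S regulators 10 were lower and 2 higher, and of 20 mitosis genes 15 and 0. As labelled, the A366 group holds 2 libraries with the expression of Mel92.1. There 15 members were lower and 5 higher, and in these lists 7, 4 and 12 genes were lower and 2, 3 and 1 higher. The shares of all genes above belong to the reported fit and not to the libraries as labelled. Without the 4 libraries DNA2 differed by -0.92, MCM10 by -0.83, TK1 by 0.32 and POLD2 by 0.24.

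Between Mel92.1 and MP41 the change with A366 differed for 15 members, each with a higher value in Mel92.1 than in MP41 (interaction in 1 fit of 18 libraries, edgeR), beside 5.13% of all 15799 genes that differed in that direction and 13.8% in either. MCM10 differed by 0.74 (SE 0.15, edgeR adjusted p = 0.00728), RFC1 by 0.73, TIPIN by 0.70 and DNA2 by 0.68. The others were CLSPN (0.60), POLA1 (0.58), RFC3 (0.50), POLD3 (0.44), MCM6 (0.38), MCM4 (0.34), CDC6 (0.34), RRM1 (0.31), UHRF1 (0.30), RRM2 (0.29) and DNMT1 (0.29). Without the 4 libraries in doubt 0 members passed and 19 had an unadjusted p under 0.05, and as labelled 28 passed, 15 higher and 13 lower. As labelled, each A366 group holds libraries with the expression of the other line. In the reported fit 8 of 27 further replication genes, 9 of 20 G1/S regulators and 12 of 20 mitosis genes, described below, passed too. As labelled these counts were 15, 9 and 15. The shares of all genes above belong to the reported fit and not to the libraries as labelled. The change with UNC0642 differed between Mel92.1 and MP41 for CLSPN (0.64, SE 0.10, edgeR adjusted p = 0.00454), beside 0.601% of all genes.

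Across the 49 members, the change with A366 in MP41 went with transcript length and base composition. Pearson's r was -0.40 with length and 0.64 with GC content, and across all 14455 genes with a known length it was -0.33 and 0.32. Without the 4 libraries in doubt r of the members was -0.47 and 0.58, against -0.23 and 0.21 across all 15287 genes, and as labelled it was -0.20 and 0.54, against -0.18 and 0.24 across 14585 genes. Genes are not independent replicates, and the points share the same libraries. The 26 members that fell had a median GC content of 43.6% and a median length of 3778 bases, against 51.7% and 2296 bases in the other 23. Among the 24 shorter members, of 1359 to 3202 bases, 9 fell and 2 rose, and among the 25 longer ones, of 3208 to 8011 bases, 17 fell and 0 rose. With the GC and length offset, r of the members was 0.085 with length and 0.27 with GC content, and 16 of the 24 shorter and 15 of the 25 longer members were called lower. The added falls were CDC45, FEN1, MCM2, MCM7, ORC6, PRIM1, RFC2, RFC4, RPA2 and TYMS, and the calls of CLSPN, GINS1, ORC2, ORC3, POLD2, PRIM2 and TK1 were lost.

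**Figure D4:**
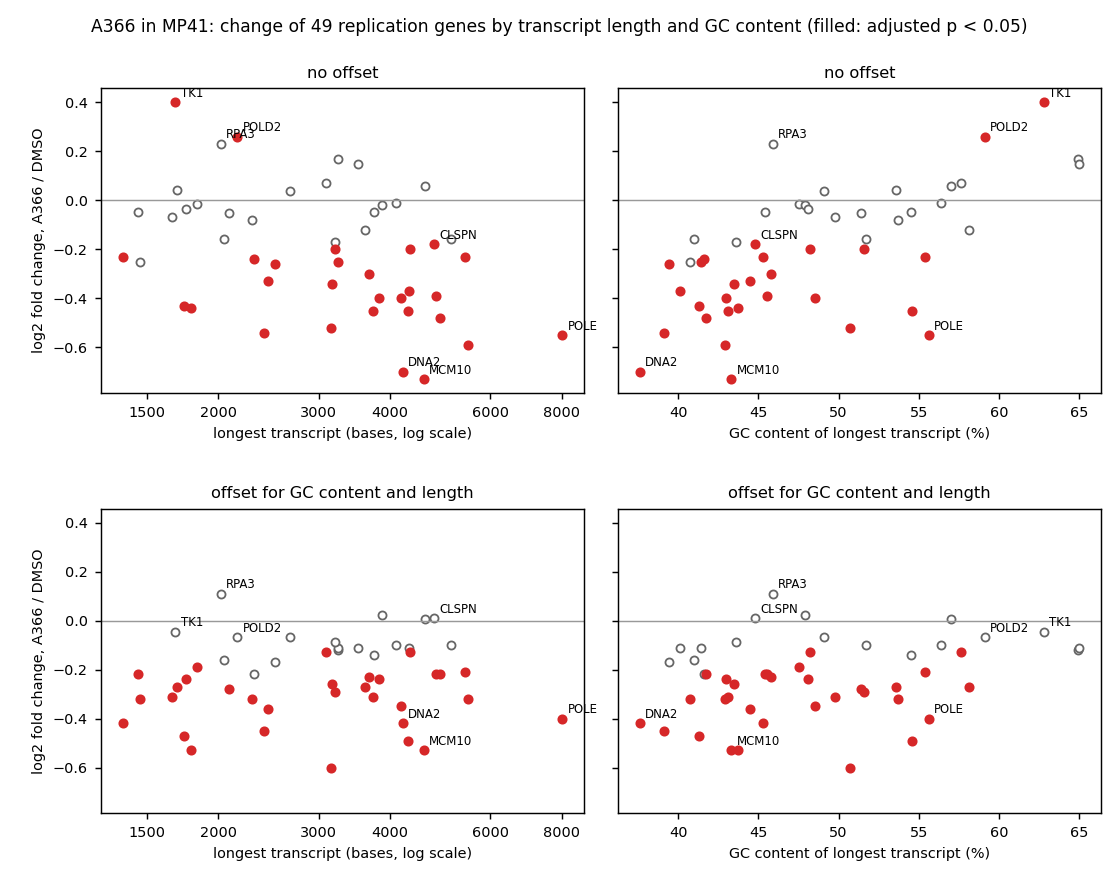
Log2 fold change of the 49 replication genes with A366 against DMSO in MP41 (y axis) by the length of the longest transcript (left, bases on a log scale) and by its GC content (right, %), without an offset (top) and with one for GC content and length (bottom). Filled points passed an adjusted p of 0.05. Long and GC-poor members such as DNA2 lie low at the top while TK1 and POLD2 lie above 0, and at the bottom these last 2 lie just below 0.

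The E2F letters stood both in members that fell and in members that were not called. With A366 in MP41, 14 of the 22 members with the letters in a window fell and none rose, at a median of -0.23, and 9 of the 20 with a window but no such letters fell and 2 rose, at a median of -0.18. Of the 7 without a window, 3 fell, and 23.5% of all genes fell. With the GC and length offset 14 of the 22, 13 of the 20 and 4 of the 7 fell and none rose. The medians were then -0.24, -0.22 and -0.24, and 16.2% of all genes fell. The falls were 10 of 22, 8 of 20 and 3 of 7 without the 4 libraries in doubt, and 7, 5 and 1 as labelled. POLE and RFC3, with the letters, were at -0.55 and -0.54, MCM10 and ORC1, without them, at -0.73 and -0.52, and CDT1, MCM2 and MCM7, with them, were not called.

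Other genes of S phase and of the cell cycle were also called in MP41, where 23.5% of all genes fell with A366 and 22.5% rose. Of 27 further replication genes, 14 fell with A366 and 3 rose, the falls including ATAD5, which unloads PCNA (-0.99), TOPBP1, needed to start forks (-0.77), and TICRR, its partner (-0.67). Of 20 E2F factors and G1/S regulators, 12 fell and 4 rose, with CCNE2 at 48.4, 49.9 and 43.6 CPM against 78.2, 78.3 and 70.2 with DMSO (-0.70), RBL1 at -0.69 and CCNA2 at -0.44. Of 20 mitosis genes, 14 fell and 1 rose, with CENPF at 354, 451 and 313 CPM against 653, 628 and 650 (-0.81), BUB1 at -0.61 and TOP2A at -0.60. The genes named so far were taken by the smallest adjusted p, and all fell. The highest log2 changes of the 3 lists were 0.64, 0.45 and 0.23. POLD4, a further replication gene, stood at 44.7, 35.3 and 53.4 CPM with A366 against 28, 29.7 and 28.4 with DMSO. CDKN1A, a G1/S regulator, stood at 191, 174 and 201 CPM against 136, 134 and 138. Without the 4 libraries 14, 12 and 13 genes of these lists fell and 3, 2 and 1 rose, beside 19.8% and 16.0% of all genes. As labelled 6, 5 and 12 fell and 2, 3 and 1 rose, beside 13.4% and 19.4%, and with the GC and length offset 14, 11 and 17 fell and 4, 1 and 0 rose, beside 16.2% and 18.1%. UNC0642 called 0 genes of these 3 lists in MP41.

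In Mel92.1, 3 of the 20 mitosis genes rose with UNC0642. There MKI67, the proliferation marker, stood at 67.5, 70.5 and 94.6 CPM against 16.4, 13.1 and 12.3 with DMSO (2.47, SE 0.17, edgeR adjusted p = 0.000216), and CENPF (1.14) and CENPE (1.14), kinetochore genes, rose too, while 0 of the 27 further replication genes and 0 of the 20 G1/S regulators were called in edgeR (1 and 0 unadjusted). Without the 4 libraries 2 mitosis genes rose with UNC0642, and as labelled 0 were called (2 unadjusted). With A366, CENPE was called (1.00) and MKI67 was at 25.2, 32.2 and 24.4 CPM (0.97, edgeR adjusted p = 0.063), and no mitosis gene was called without the 4 libraries or as labelled (3 and 12 unadjusted). MKI67, CENPE and CENPF were low in Mel92.1 with DMSO in the first place, at -4.91, -4.74 and -3.43 relative to MP41, whereas MCM2, MCM3 and MCM4 were higher there. EHMT2 was called with A366 in MP41 (0.23, edgeR adjusted p = 0.00936), but not without the 4 libraries in doubt, as labelled or with the offset. The other changes of EHMT2 and EHMT1 against DMSO were not called, and the mRNA of an inhibited enzyme does not show whether it was inhibited.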

How the data were processed

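RNA-seq of 18 libraries (2 lines, 3 treatments, 3 replicates) was analysed. The authors deposited 1 table of expected counts per gene from RSEM, not scaled for library size. The submitters' processing notes name Bowtie2 2.1.0, RSEM 1.2.15 and hg38, whereas the methods of the study name TopHat, Cufflinks and a mouse build. The extraction protocol names oligo-dT selection and the series text removal of ribosomal RNA. All 18 columns were used and 0 were left out.

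Samples were grouped by their labels, with A366 replicates 2 and 3 exchanged between the lines as the study's results table lists them. Expected counts were rounded and fitted with edgeR 4.0.16 in R 4.3.3 (filterByExpr, TMM, glmQLFit, glmQLFTest) over all genes, with 9 libraries per line, the 6 DMSO libraries for the comparison of lines and all 18 for interactions. Benjamini-Hochberg adjustment was over all genes tested, with a threshold of 0.05. All 49 members passed the filter. CPM are scaled by TMM factors, and levels per kb use the longest GENCODE 29 transcript, where 23899 symbols matched by name, 719 through a synonym and 1857 not. GC content and length entered the offset as splines. Library totals of 23601156 to 62941462 counts set the counting error. PCR copies are not independent molecules.

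All 49 members are named for A366 against DMSO in MP41 and for the lines with DMSO, and in the other comparisons they are counted. Values per library are given for a set member of each step, for up to 3 called members of each role with the smallest adjusted p, and for the highest and lowest member of a comparison, and from other lists for up to 3 called genes. The members, lists and tests were chosen with earlier results of these data known. The alternatives were DESeq2 1.42.0, RLE factors, library size alone, other filters, the replicate block, limma 3.58.1 voom with sample weights, the offset, fits of 2 groups, the libraries as labelled, without the 4 in doubt, and leaving out each library. The scripts were tested on simulated data.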

Additional observations from a re-analysis of the deposited data

Results flagged for a closer look

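The change with an inhibitor differed between the lines, by the interaction test in edgeR, for 1 member with UNC0642 and 15 with A366. Values are log2 changes of Mel92.1 from which those of MP41 were subtracted. With UNC0642 the member was CLSPN, at 0.64, whose 3 UNC0642 libraries were all above DMSO in Mel92.1. With A366 the differences were MCM10 0.74, RFC1 0.73, TIPIN 0.70, DNA2 0.68, CLSPN 0.60, POLA1 0.58, RFC3 0.50, POLD3 0.44, MCM6 0.38, MCM4 0.34, CDC6 0.34, RRM1 0.31, UHRF1 0.30, RRM2 0.29 and DNMT1 0.29. None of the 15 passed without the 4 libraries whose labels are in doubt, where A366 has 1 library per line. Groups of 3 libraries were not tested for outlying samples.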

How the results depend on the processing

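Of 112 member results called by the test, the alternatives gave 1866 values with the same direction and call, 264 with the direction but no call and 22 with the opposite sign. Counts of members called stayed within 1.5 times in the comparisons and alternatives not named here, and the cause of each change below was not tested. With UNC0642 in Mel92.1 the count of 1 became 0 with library size alone, with the replicate block, as labelled and without the 4 libraries, and 2 with limma voom. Of all 14528 genes, 100 were called there in the reported fit, 18 with library size alone, 46 with the replicate block and 413 with limma voom. Leaving out 1 library gave 0 to 1 members, the 0 without DMSO replicate 2 or 3 or UNC0642 replicate 2. With A366 in Mel92.1 the count of 0 became 1 in DESeq2 and 11 in limma voom, beside 171 and 3087 of 14528 genes. A366 against UNC0642 in MP41 gave 31, and 20 as labelled. The interaction with UNC0642 gave 1, then 0 with library size alone, 2 with limma voom and 0 as labelled. The interaction with A366 gave 15, then 6 with library size alone, 38 with limma voom, 28 as labelled and 0 without the 4 libraries. Leaving out 1 library there gave 6 to 22, with 6 without Mel92.1 DMSO replicate 3 or A366 replicate 1, 8 without Mel92.1 A366 replicate 2 or MP41 A366 replicate 1 or 3, and 9 without Mel92.1 DMSO replicate 2. A366 in MP41 gave 23 to 33, A366 against UNC0642 there 24 to 32 and the lines with DMSO 31 to 42. The number of all genes called is given for only part of these fits. Elsewhere a changed count of members may reflect the number of calls over all genes, which was not tested. As labelled, signs turned for MCM4 (1.08 against DMSO, 1.04 against UNC0642, -2.03 in the interaction), UHRF1 (0.36, 0.38 and -1.06), MCM3 (0.89 and 0.84) and ORC3 (0.47 and 0.46) against DMSO and UNC0642, PRIM2 against DMSO (0.16), MCM2 against UNC0642 (1.1), and RFC3 (-0.27) and RRM1 (-0.043) in the interaction. With the GC and length offset they turned for TK1 (-0.046 against DMSO, -0.085 against UNC0642), POLD2 (-0.069 and -0.065), CLSPN (0.0098 and 0.0016), ORC2 against UNC0642 (0.0051) and MCM5 between the lines (-0.042). With library size alone the median of all genes was -0.23 with UNC0642 in Mel92.1, against -0.022 in the reported fit. For A366 against UNC0642 there it was 0.25, against 0.014, and in the interaction with UNC0642 it was about -0.24. In the interaction with A366, 810 of 2179 calls were higher in the reported fit and 257 of 482 with library size alone.

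Same-numbered libraries did not vary together (r of -0.15 to 0.16 in MP41 and -0.41 to 0.52 in Mel92.1, 1 of 9 pairs over 0.1 in each line), so the numbers do not pair the libraries. With the replicate block, 26 members were called for A366 in MP41, 27 for A366 against UNC0642 there, 33 between the lines and 10 in the interaction with A366. The numbers of all genes called by these fits are not given here.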
